A study of Mus musculus with 2 samples.

Results

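The Wnt pathway gene set held 58 genes out of 21911 named protein-coding genes of the mouse. The 58 genes were chosen by name from the families of the pathway and not by any measured value, but with earlier results of these data known. They comprised 19 Wnt ligands, 12 Frizzled receptors and Lrp co-receptors, 7 R-spondins and Lgr receptors, 9 secreted inhibitors, 4 TCF/LEF transcription factors, 5 genes of the beta-catenin class (beta-catenin itself, the destruction complex and Nkd1) and 2 genes for ligand secretion. DNase-seq maps accessible chromatin by sequencing where the enzyme DNase I has cut, and was done on midbrain tissue of healthy B6NCrl mouse embryos at day 14.5. There was 1 group with 2 biological replicates, each from pooled male and female embryos and both listed under 1 donor entry, so no condition was compared and no p-value was computed. Because whole tissue was assayed, an open site in few cells and a weakly open site in many cells cannot be told apart.

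Wnt proteins are lipid-modified secreted signals that bind Frizzled receptors together with Lrp5 or Lrp6. Binding stops the destruction complex (Axin, Apc and the kinases Gsk3 and casein kinase 1) from marking beta-catenin for degradation, and beta-catenin then acts with TCF/LEF factors on target genes. In the embryonic midbrain, Wnt1 from the boundary with the hindbrain and from the dorsal midline is known for patterning the tissue and for the dopaminergic lineage.

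Peak lists differed in length and in values between the replicates, and the read depth behind them is unknown. Replicate 1 had 710176 peaks and replicate 2 had 267958, with median peak values of 6 and 51 on the authors' scale, which ends at 150. Peak values were therefore not averaged over the replicates. Each value was ranked within its own replicate, and where 1 rank per peak or gene was needed, the mean of its percentile ranks in both replicates was used. A replicate 2 peak overlapped by a replicate 1 peak counted as shared, which gave 171429 shared peaks. All 8 midbrain and isthmus markers had a shared peak within 1000 bp of a transcript start (among them Otx2, En1, En2 and Pax5, all transcription factors), against 69.0% of all protein-coding genes, as did 4 of 4 progenitor markers and 3 of 3 neuron markers. So did 3 of 3 forebrain markers, 1 of 3 hindbrain and cord markers, 4 of 5 markers of meninges and mesenchyme, 2 of 3 of endothelium, 1 of 4 of erythroid cells and 0 of 3 of myeloid cells. Since most promoters are open and the lists are short, the open promoters of markers do little to tell these cell types apart. Their part in the values of the Wnt genes was not tested.

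Accessible regions with the core letters bound by TCF/LEF factors are shown first, since these factors are the nuclear end of the pathway. The letters searched were CTTTGAT, exact and on both strands (ATCAAAG on the printed strand when the match is on the minus strand). Shown are the shared peaks of the members that hold them, up to 2 for each class by peak rank, except that a ligand peak in the Wnt8a window, of higher rank than the Wnt11 peak, is not printed. The sequences are the plus strand of mm10, 5′ to 3′, in lower case with the match in capitals. A match describes the letters and is not evidence of binding. The ligand peak shared by the windows of Wnt6 and Wnt10a lies in an intron of Wnt10a at chr1:74797596-74797745, and that of Wnt11 is intergenic, 18281 bp upstream of the gene's 5′ end, at chr7:98816756-98816905. The peak of the Fzd4 window lies in an intron of the neighbour Tmem135 at chr7:89371036-89371185, and that of the Fzd2 window is intergenic at chr11:102639256-102639405. Lgr5 has 1 peak in an intron at chr10:115493856-115494005 and 1 at its promoter, 451 bp upstream of the nearest start, at chr10:115588156-115588305. Dkk3 has an intergenic peak 21294 bp upstream at chr7:112180276-112180425, and Dkk1 a promoter peak 346 bp upstream at chr19:30549936-30550085. The Lef1 peak lies in an intron, 26800 bp from the gene's 5′ end, at chr3:131137196-131137345, and the Tcf7 peak lies 377 bp upstream of its start at chr11:52283316-52283465. The Nkd1 peak lies 83 bp upstream of its start at chr8:88521196-88521345. For Axin2 the peak at chr11:108921116-108921265 overlaps an annotated UTR, so only the 29 bases around the match, chr11:108921221-108921249, are printed. For Lgr5, Dkk1 and Axin2 the promoter peak with the letters is not the strongest promoter peak of the gene. Its values in replicates 1 and 2 are 9 and 56 for Lgr5, 26 and 102 for Dkk1, and 65 and 123 for Axin2.
Wnt6 and Wnt10a distal peak: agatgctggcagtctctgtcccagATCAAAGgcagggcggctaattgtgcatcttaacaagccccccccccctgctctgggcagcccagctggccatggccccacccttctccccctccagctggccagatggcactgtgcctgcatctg
Wnt11 distal peak: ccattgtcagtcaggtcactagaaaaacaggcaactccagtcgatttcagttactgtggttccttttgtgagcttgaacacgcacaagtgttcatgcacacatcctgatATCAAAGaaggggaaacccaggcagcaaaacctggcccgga
Fzd4 distal peak: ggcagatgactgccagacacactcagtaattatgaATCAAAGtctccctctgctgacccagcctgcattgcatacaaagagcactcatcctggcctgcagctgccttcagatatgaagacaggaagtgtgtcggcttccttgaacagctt
Fzd2 distal peak: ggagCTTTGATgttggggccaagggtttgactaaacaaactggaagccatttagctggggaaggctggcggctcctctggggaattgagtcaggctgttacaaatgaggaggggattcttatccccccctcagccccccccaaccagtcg
Lgr5 distal peak: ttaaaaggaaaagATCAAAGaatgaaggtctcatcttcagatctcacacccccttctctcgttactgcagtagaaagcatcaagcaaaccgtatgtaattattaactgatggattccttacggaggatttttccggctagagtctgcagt
Lgr5 promoter peak: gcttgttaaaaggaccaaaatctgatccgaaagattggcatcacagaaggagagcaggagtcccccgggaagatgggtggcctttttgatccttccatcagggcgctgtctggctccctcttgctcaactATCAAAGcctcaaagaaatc
Dkk3 distal peak: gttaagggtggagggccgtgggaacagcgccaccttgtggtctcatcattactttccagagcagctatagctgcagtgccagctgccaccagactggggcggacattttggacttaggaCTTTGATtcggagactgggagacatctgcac
Dkk1 promoter peak: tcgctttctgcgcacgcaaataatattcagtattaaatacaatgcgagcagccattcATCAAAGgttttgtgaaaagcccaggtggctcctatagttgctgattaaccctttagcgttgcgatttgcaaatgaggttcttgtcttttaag
Lef1 distal peak: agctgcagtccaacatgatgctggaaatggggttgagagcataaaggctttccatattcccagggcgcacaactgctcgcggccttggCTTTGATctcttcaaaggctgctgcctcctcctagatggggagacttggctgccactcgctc
Tcf7 promoter peak: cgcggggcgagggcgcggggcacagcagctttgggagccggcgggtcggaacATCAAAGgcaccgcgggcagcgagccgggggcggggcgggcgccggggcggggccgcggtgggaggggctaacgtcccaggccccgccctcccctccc
Nkd1 promoter peak: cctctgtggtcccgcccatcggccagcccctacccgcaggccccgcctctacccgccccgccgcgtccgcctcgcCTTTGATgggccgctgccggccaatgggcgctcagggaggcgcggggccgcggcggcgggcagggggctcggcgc
Axin2 promoter peak: cggccggcgcgCTTTGATgtgcggggcgg

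In the shared promoter peaks of the members, 8 of 177 held the letters (4.52%, exact Clopper-Pearson 95% interval 1.97% to 8.71%), against 1.36% of the 35384 shared promoter peaks of all genes. The 8 peaks belonged to 6 genes, with 2 each at Dkk1 and Nkd1 and 1 each at Axin2, Tcf7, Lgr5 and Wnt16. With the related letters CTTTGAA the shares were 3.95% (1.6% to 7.98%) in members and 2.01% in all genes, so the interval of the members then held the value of all genes. Peaks of 1 gene are not independent, and these intervals cover counting error only.

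Wnt gene promoters were open more often than the average promoter. A shared peak lay within 1000 bp of an annotated start in 55 of 58 members (94.8%), against 69.0% of all protein-coding genes. In single replicates, 57 members had a promoter peak in replicate 1, against 75.8% of all genes, and 58 had one in replicate 2, against 72.5% of all genes. The 46 other genes of the pathway, such as Dvl, Gsk3, Tle and planar polarity genes, were similar, with 44 open promoters. CpG content moved with this share. Genes were put into 4 bins of nearly equal size by the number of CpG dinucleotides around the 5′ end. No member fell in the lowest bin, in which 14.9% of all genes were open. In the bins above it, 5 of 5, 16 of 18 and 34 of 35 members were open, against 63.3%, 96.4% and 98.9% of all genes. In the 2 upper bins, which held 18 and 35 members, the share of open members was thus not above that of all genes.

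The strength of the promoter peaks separated the classes more than their presence did. Over all 58 members the median value of the strongest promoter peak was 57.5 in replicate 1 and 119 in replicate 2, against 60 and 122 over all genes. A gene with no promoter peak counted as 0 in these medians and in the percentiles of all genes. Over all genes with a promoter peak the medians were 86 and 136, so member peaks were weaker than the typical promoter peak. The gene median used below is that of all genes. Values above the gene median in both replicates were found for 25 members, against 48.0% of all genes, and values below it in both for 28 members, against 48.0% of all genes. Of the ligands, 3 of 19 were above and 15 were below in both replicates. Of the receptors and co-receptors, 9 of 12 were above and 2 were below. All 5 genes of the beta-catenin class were above. In the bin with the most CpG, the 35 members had medians of 72 in replicate 1 and 133 in replicate 2. All 5580 genes of that bin had 103 and 141, so members there were below genes of like CpG content.

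**Figure D1:**
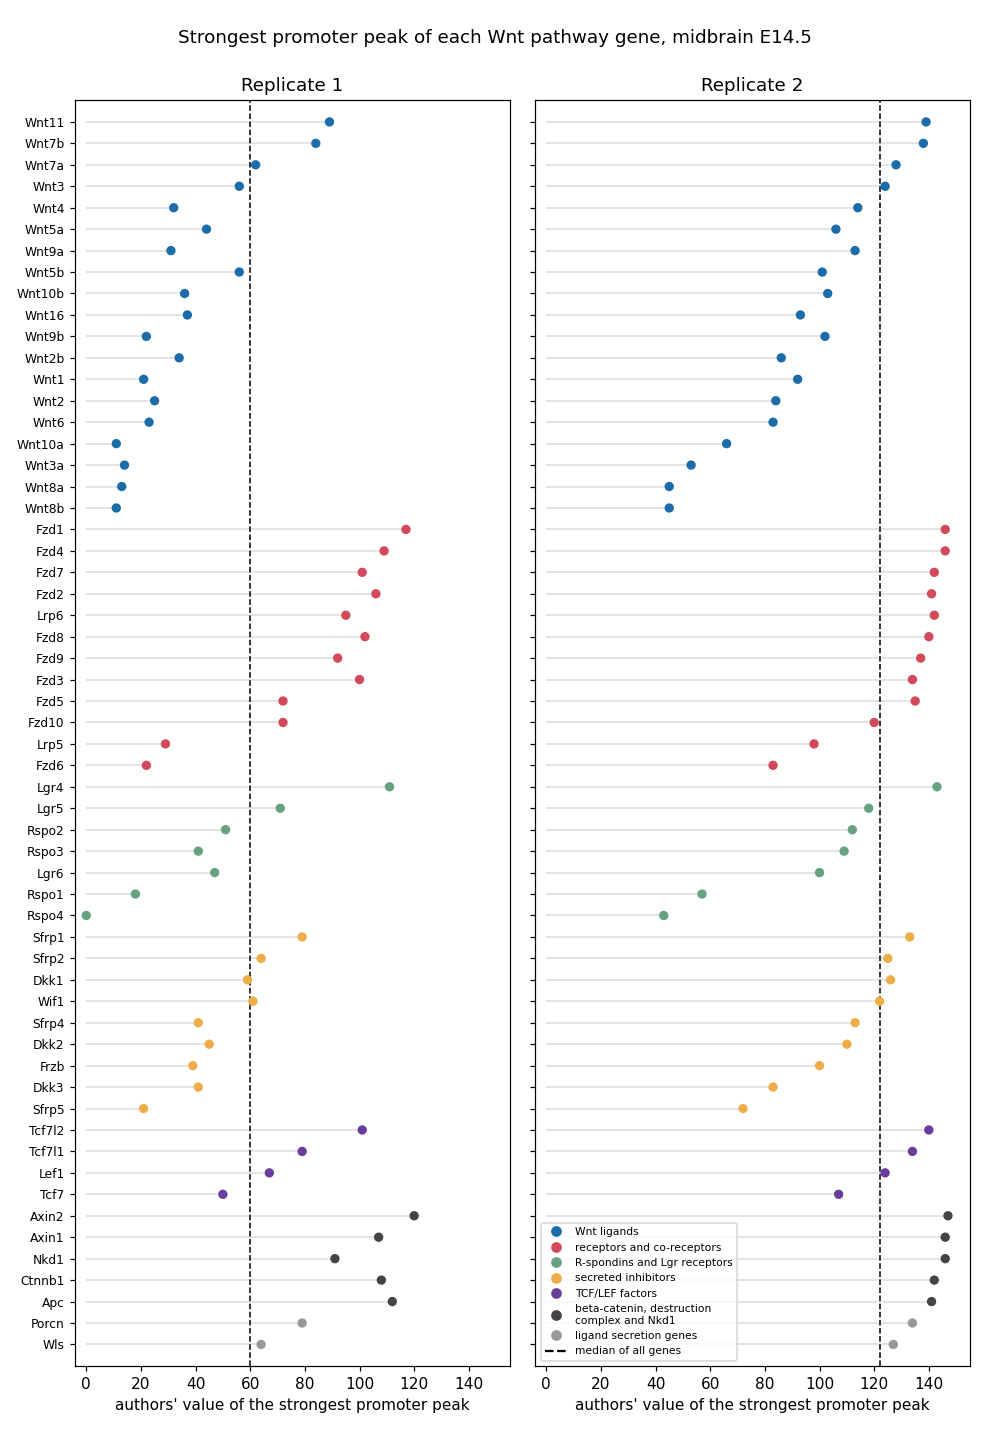
Value of the strongest promoter peak (authors' scale, up to 150) for each of the 58 genes in replicate 1 (left) and replicate 2 (right), 1 point per gene, coloured by class, with the median over all genes as a dashed line at 60 and 122; Rspo4 is drawn at 0 in replicate 1, where it had no peak. Genes with no peak count as 0 in these medians. Most ligands lie left of the line in both replicates, most receptors and all beta-catenin class genes lie right of it.

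The ligand promoters had a median value of 32 in replicate 1 and 101 in replicate 2, the 40.2 and 41.8 percentile of all genes. Wnt11, which acts mostly without beta-catenin, was the highest, with 89 in replicate 1 and 139 in replicate 2. Wnt7b, a signal of the neural tube to its blood vessels, had 84 and 138. Wnt7a, which acts beside it, had 62 and 128. These 3 were the ligands above the gene median in both replicates. Wnt3, a canonical ligand, had 56 in replicate 1 and 124 in replicate 2, on opposite sides of the medians. Wnt4 had 32 and 114. Wnt1, the signal of the midbrain boundary, had 21 and 92, with the peak centred at -166 bp in replicate 1 and -186 bp in replicate 2 from its start.

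At the low end, Wnt3a, a signal of the dorsal midline, had 14 in replicate 1 and 53 in replicate 2. Wnt8a had 13 and 45, from peaks that did not overlap, centred at -922 bp in replicate 1 and 698 bp in replicate 2 from its start. Wnt8b, known from the edge of the developing cortex, had 11 and 45. Its peaks did not overlap either, at chr19:44493476-44493625 in replicate 1 and chr19:44510396-44510545 in replicate 2. These genes and Wnt1 are named after their values were seen or for their place in the midbrain. The strongest replicate 2 peak lay at an internal start in Wnt5b, Wnt8b, Wnt10b and Wnt11. With the gene's 5′ end alone as promoter, Wnt8b lost its open status and the other ligands kept theirs. Wnt10a was the 1 ligand with no shared promoter peak. It had a peak of 11 in replicate 1, centred at -912 bp from a start, and one of 66 in replicate 2, centred at 35 bp, and these did not overlap.

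Receptor promoters stood higher, with medians of 97.5 in replicate 1 and 138 in replicate 2, the 70.2 and 68.3 percentile of all genes. Of the 12 receptors, 12 were open, against 69.0% of all genes. In the bin with the most CpG, which held 11 of them, 98.9% of all genes were open. Fzd1 had 117 in replicate 1 and 146 in replicate 2. Fzd4 had 109 and 146. Fzd7 had 101 and 142, and Fzd2 had 106 and 141. These are Frizzled receptors with the Wnt-binding domain outside the cell. The co-receptors differed. Lrp6 had 95 and 142, from peaks that did not overlap, centred at -18 bp in replicate 1 and -306 bp in replicate 2 from a start. Lrp5 had 29 and 98, below the gene median in both replicates. Fzd6 was the lowest receptor, with 22 and 83. Lrp5 and Fzd6 are named after their values were seen.

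The contrast of ligands with receptors was also present among genes rich in CpG. In the bin with the most CpG, the 11 ligands had medians of 34 in replicate 1 and 113 in replicate 2. The 11 receptors there had 95 and 137, and all 5580 genes there 103 and 141. The ranges of the whole classes overlapped, at 11 to 89 for ligands and 22 to 117 for receptors in replicate 1, and 45 to 139 and 83 to 146 in replicate 2.

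R-spondins are secreted enhancers of Wnt signalling that bind Lgr4, Lgr5 and Lgr6. Lgr4 had the strongest promoter peak of this class, with 111 in replicate 1 and 143 in replicate 2, above the gene median in both. Lgr5, a known Wnt target and stem cell marker, had 71 and 118. Lgr6 had 47 and 100. Among the ligands of these receptors, Rspo2 had 51 and 112, Rspo3 had 41 and 109, and Rspo1 had 18 and 57. Rspo4, known for nail growth, had no promoter peak in replicate 1 and one of 43 in replicate 2, and so was not open. The Lgr receptors thus spanned 47 to 111 in replicate 1, and the R-spondins reached 51 at most. Lgr6 was below Rspo2 in both replicates, and in replicate 2 it was also below Rspo3.

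The secreted inhibitors were intermediate, with medians of 45 in replicate 1 and 113 in replicate 2. Of these, 8 of 9 were open, against 69.0% of all genes. Sfrp1, which binds Wnt ligands outside the cell, was the highest with 79 and 133. Its relative Sfrp2 had 64 and 125, and Sfrp4 had 41 and 113. Dkk1, which blocks Lrp5 and Lrp6, had 59 in replicate 1, just under the gene median of 60, and 126 in replicate 2. Wif1, another Wnt-binding protein, had 61 and 122. Sfrp5 was not open under the shared-peak rule, with 21 in replicate 1 and 72 in replicate 2. Its replicate 1 and replicate 2 peaks lay 421 and 601 bp downstream of the start and did not overlap.

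All 4 TCF/LEF genes were open, against 69.0% of all genes. All 4 lay in the bin with the most CpG, where 98.9% of all genes were open. Tcf7l2 had 101 in replicate 1 and 140 in replicate 2. Tcf7l1, known mostly as a repressor, had 79 and 134. Lef1 had 67 and 124, and Tcf7 had 50 and 107, the only member of this class below the gene medians. The 4 genes thus lay between 50 and 101 in replicate 1 and between 107 and 140 in replicate 2.

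The beta-catenin class had the strongest promoter peaks, with medians of 108 in replicate 1 and 146 in replicate 2, the 79.2 and 91.1 percentile of all genes. The 4 of these genes in the bin with the most CpG had medians of 110 and 146. All genes of that bin had 103 and 141, so the lead over genes of like CpG content was smaller. Axin2, a scaffold of the destruction complex that is itself a widely used Wnt target, had 120 and 147, the highest values of all 58 members. Axin1, its relative, had 107 and 146, and Apc, another scaffold, had 112 and 141. Ctnnb1, which encodes beta-catenin, had 108 and 142, at an internal start 4175 bp from the gene's 5′ end. Nkd1, an inhibitor that acts on Dishevelled, had 91 and 146. The secretion genes were both open, against 69.0% of all genes. Porcn, which attaches the lipid to Wnt proteins, had 79 and 134, and Wls, which carries them to the cell surface, had 64 and 127.

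The regions around Wnt genes held more distal peaks than those around most genes. A distal peak was a shared peak centred over 1000 bp from any protein-coding start, and each gene was given those inside its body or within 50 kb of it. Members had a median of 13 such peaks, with a range of 0 to 55, against a median of 7 over all genes. Of the 58 members, 45 were above that gene median, against 45.0% of all genes. At or above 19 peaks, the 90th percentile, were 16 members, against 10.6% of all genes. Gene length moved with the count, and members were longer, with a median of 30968 bp against 17433 bp over all genes. In 4 bins of gene length, from short to long, members had medians of 14.5, 10, 12.5 and 15.5, against 4, 6, 7 and 12 over all genes. In the bin with the most CpG, which held 35 members, the medians were 17 in members and 10 in all genes. In the bin below it, with 18 members, they were 8.5 and 8. In the next lower bin, with 5 members, they were 8 and 7. The higher count of members was thus found mainly in the bin with the most CpG.

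**Figure D2:**
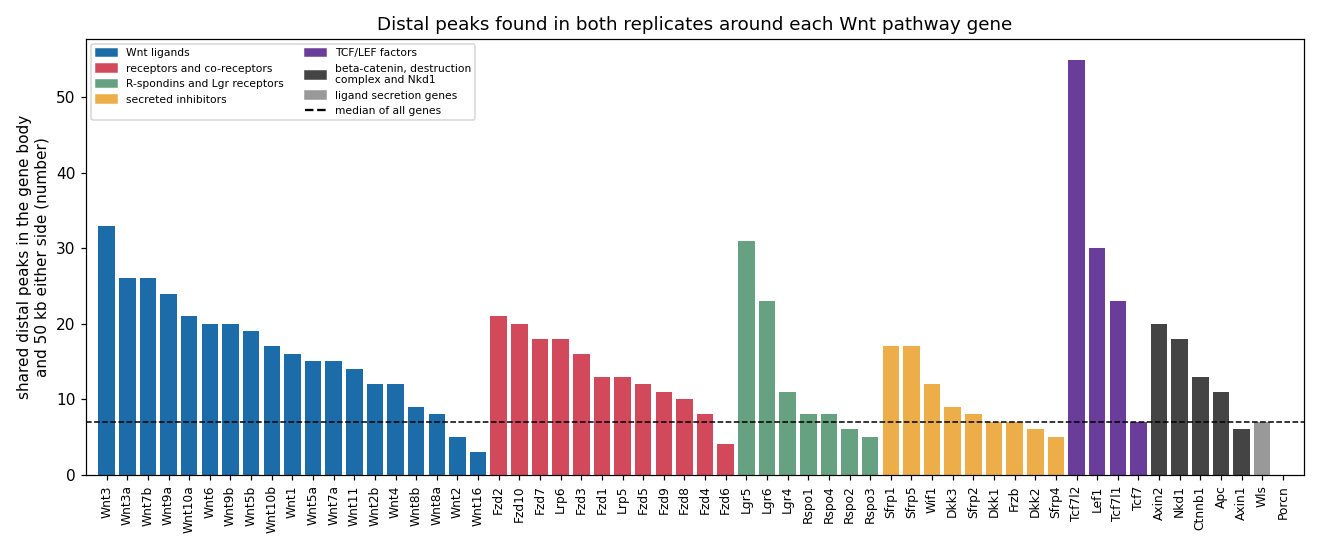
Number of shared distal peaks inside the gene or within 50 kb of it for each of the 58 genes, 1 bar per gene, coloured by class and sorted within it, with the median over all genes as a dashed line at 7. Tcf7l2 stands highest with 55, and Porcn has 0.

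The order of the classes by distal peaks was not their order by promoter value. TCF/LEF genes had the highest median, 26.5, with 55 at Tcf7l2, 30 at Lef1, 23 at Tcf7l1 and 7 at Tcf7. Of the 55 peaks at Tcf7l2, 41 lay inside the gene, which is 191835 bp long. Ligands had a median of 16, and 17 of 19 were above the gene median, with 33 peaks at Wnt3 and 26 each at Wnt3a and Wnt7b. Wnt2 with 5 and Wnt16 with 3 were the ligands below it. Receptors and the beta-catenin class each had a median of 13. Fzd2 had 21, Fzd10 had 20, and Fzd7 and Lrp6 had 18 each, and Fzd6 had 4. Axin2 had 20, Nkd1 had 18, Ctnnb1 had 13, Apc had 11 and Axin1 had 6. The R-spondin and Lgr class and the inhibitors each had a median of 8. In the first of these, Lgr5 had 31, Lgr6 had 23 and Lgr4 had 11, and the 4 R-spondins had 5 to 8. Among inhibitors, Sfrp1 and Sfrp5 had 17 each, Wif1 had 12, and the other 6 had 5 to 9. Wls had 7. The order of the classes depended on the replicate. With replicate 1 alone the median was 108 for TCF/LEF genes, 81 for ligands, 48 for the beta-catenin class, 47 for inhibitors, 45 for the R-spondin and Lgr class and 35 for receptors. With replicate 2 alone it was 37.5, 23, 19, 16, 15 and 20.5 for these classes in the same order. The place of the receptors above the inhibitors and the R-spondin and Lgr class thus did not hold in replicate 1.

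**Figure D3:**
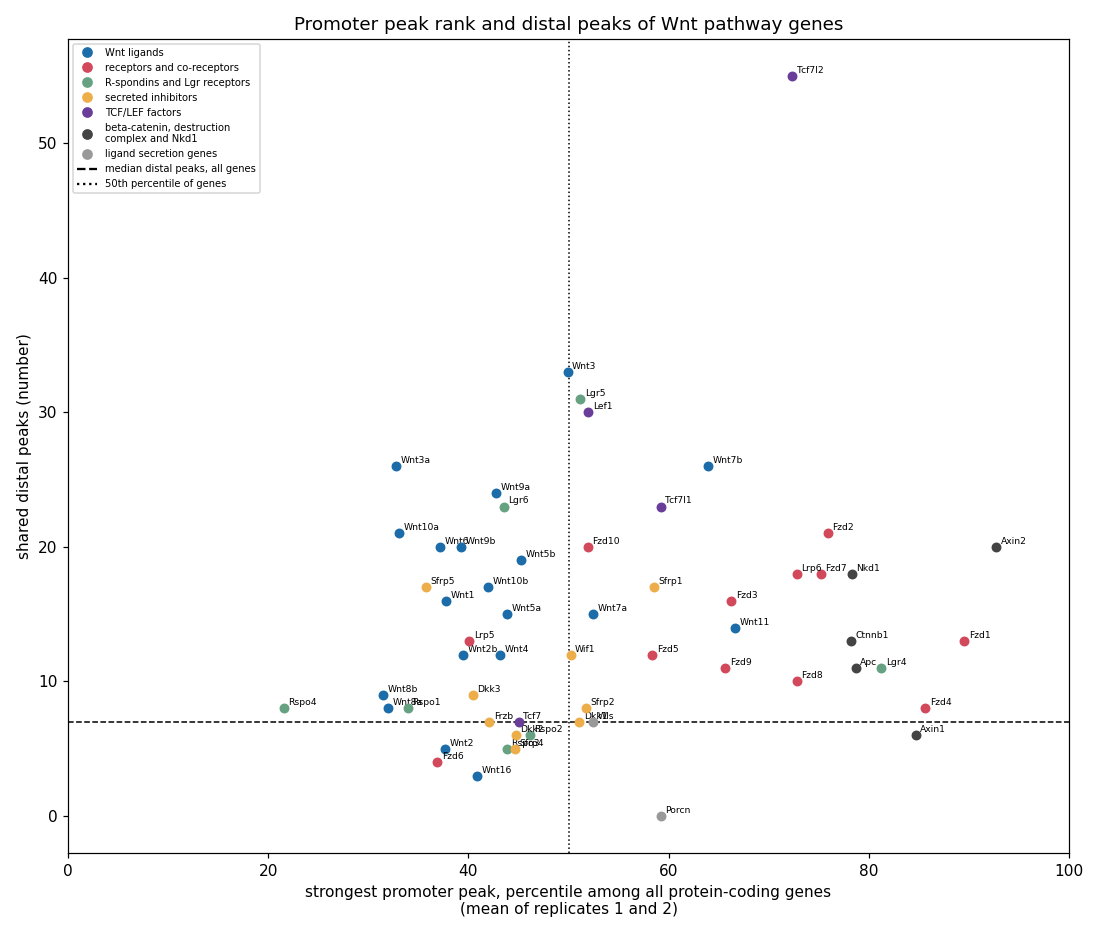
Shared distal peaks (number) against the percentile of the strongest promoter peak among all protein-coding genes (mean of the percentiles in replicates 1 and 2) for the 58 genes, 1 labelled point per gene, with lines at 7 peaks and the 50th percentile. Wnt3a and Wnt10a, with 26 and 21 distal peaks, lie left of the 50th percentile, and Axin1 and Fzd4, with 6 and 8, lie right of it.

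Some windows overlap, so the ligand counts are not independent. Wnt1 and Wnt10b on chromosome 15 shared 16 distal peaks, Wnt6 and Wnt10a on chromosome 1 shared 20, Wnt3a and Wnt9a on chromosome 11 shared 22, and Wnt3 and Wnt9b on chromosome 11 shared 14. The 58 windows held 777 distinct distal peaks, of which 72 lay in the windows of more than 1 member. Of the 777, 352 were intergenic (45.3%), 340 lay in introns (43.8%) and 85 in exons (10.9%). A member's start was the nearest protein-coding start for 577 of them (74.3%). When each peak was counted only for the gene with the nearest start, the median was 8 in members, against 2 in all genes. By class it was then 16 for TCF/LEF genes, 13 for the beta-catenin class, 10 each for ligands and receptors, 7 for inhibitors, 6 for the R-spondin and Lgr class and 3.5 for secretion genes, so that ligands no longer stood above receptors or the beta-catenin class.

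At Wnt1 (chr15:98789857-98793837, plus strand), 9 of 16 distal peaks lay downstream of the gene, 4 inside and 3 upstream. Of the 9 downstream, 5 were nearer to the start of another gene, Ddn or Prkag1. Of the 10 peaks with the Wnt1 start as nearest, 4 were downstream, 4 inside and 2 upstream. The enhancer known to drive Wnt1 in the midbrain of transgenic mice also lies 3′ of the gene, and whether these peaks fall in it was not examined. The peak with the highest rank within 10 kb of the gene, chr15:98798096-98798245, lay 4334 bp past the gene end with 60 in replicate 1 and 125 in replicate 2. A neighbour 5754 bp past the end, with Ddn as nearest start, had 55 and 113, and one 3554 bp past the end had 55 and 105. A peak in a Wnt1 exon at chr15:98792756-98792905 had 45 and 114, and one 1746 bp upstream had 33 and 92. Each of these 4 peaks inside or past the gene thus had a higher value in both replicates than the Wnt1 promoter peak of 21 and 92.

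At Axin2 (chr11:108920349-108950783, plus strand) the promoter was the stronger site. Its highest-ranked distal peaks within 10 kb were intronic, with 54 in replicate 1 and 116 in replicate 2 at chr11:108941116-108941265 and 73 and 109 at chr11:108925316-108925465. A peak 2498 bp upstream had 58 and 110. All 3 were below the 120 and 147 of the Axin2 promoter.

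**Figure D4:**
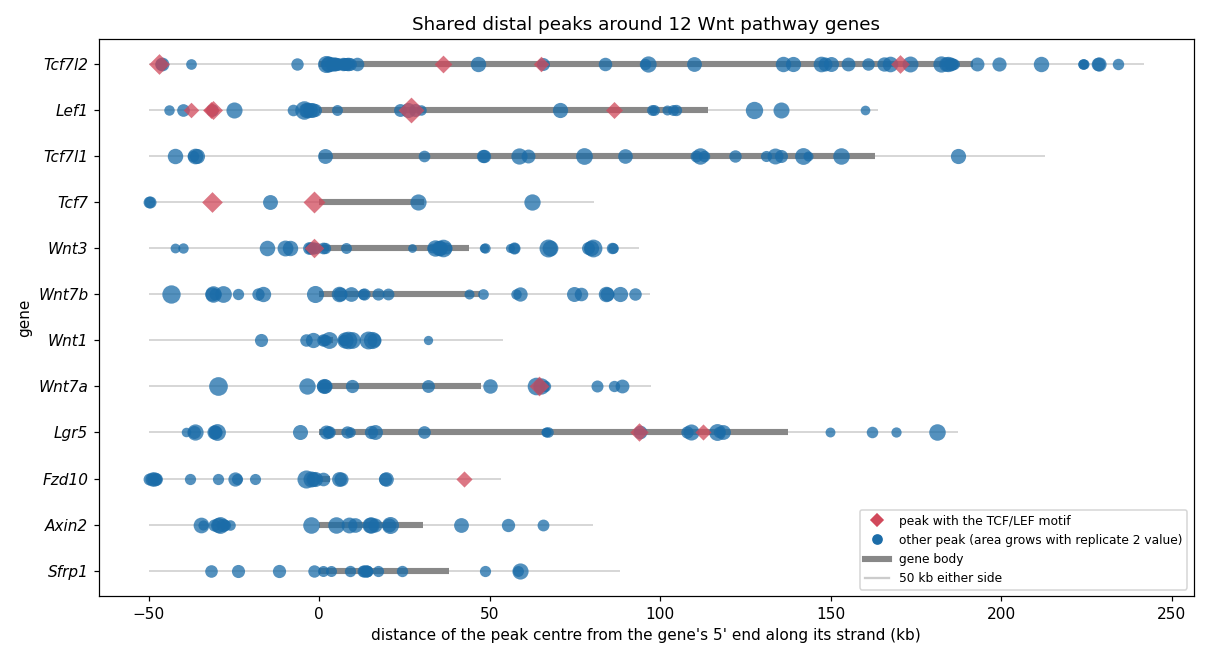
Positions of shared distal peaks (kb from the gene's 5′ end along its strand) around 12 members chosen after their values were seen, 1 row per gene, with the gene body as a thick bar, the 50 kb flanks as a thin line, and point area growing with the replicate 2 value; diamonds mark peaks with the TCF/LEF letters. The 4 peaks of Tcf7l2 and 5 of Lef1 with the letters lie both inside and upstream of the genes, and Wnt1 and Axin2 have none.

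The 2 distal peaks of highest rank in each class were picked as the top of many. Some had higher values than the promoter of the same gene in both replicates, and others did not. For ligands, an intergenic peak 29568 bp upstream of Wnt7a at chr6:91440856-91441005 had 114 in replicate 1 and 142 in replicate 2, above the 62 and 128 of the Wnt7a promoter. A peak in an exon of Wnt10a, also in the Wnt6 window, had 73 and 138 at chr1:74803156-74803305, while the Wnt10a promoter itself had no shared peak. In the R-spondin and Lgr class, a peak in an intron of Rspo3 at chr10:29532936-29533085 had 80 and 131, above the 41 and 109 of its promoter. For inhibitors, a peak 1890 bp upstream of Sfrp2 at chr3:83764356-83764505 had 88 and 141, above the 64 and 125 of its promoter. One in an intron of Wif1 at chr10:121055576-121055725 had 71 and 121, beside 61 and 122 at its promoter. Lef1 had a peak 4360 bp upstream at chr3:131106036-131106185 with 82 and 139, and the intronic peak with the printed letters had 85 and 135. Both were above the Lef1 promoter values of 67 and 124. For secretion genes, an intronic peak of Wls at chr3:159885416-159885565 had 76 and 124, beside 64 and 127 at its promoter.

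Some of the strongest peaks in the windows lay nearer to other genes. The top receptor peak, with 119 in replicate 1 and 142 in replicate 2, lay in the Fzd3 window at chr14:65150016-65150165, 42358 bp past the gene end, and its nearest start was that of Extl3. The top peak of the R-spondin and Lgr class, with 92 and 129, lay in an intron of Arl8a at chr1:135154496-135154645, 49295 bp upstream of Lgr6. In the beta-catenin class a peak in an exon of Snx20, with 107 and 147, lay in the Nkd1 window at chr8:88627396-88627545. The next, with 79 and 124, lay 9367 bp past the end of Nkd1 at chr8:88604176-88604325, below the 91 and 146 of the Nkd1 promoter. The second receptor peak, with 77 and 137, lay in the exon of Fzd8, 1408 bp from its start, below the 102 and 140 of the Fzd8 promoter.

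The letters CTTTGAT occurred in 33 of the 777 distal peaks of members (4.25%, interval 2.94% to 5.91%), against 3.49% of the 140437 shared distal peaks of the genome, so the interval held the genome's value. By class the highest share was that of TCF/LEF genes, 11 of 115 (9.57%, 4.87% to 16.5%). Of these 11 peaks, 9 lay in the windows of Lef1 (5) and Tcf7l2 (4). Peaks of the same gene are not independent, so the intervals for distal peaks cover counting error only. The TCF/LEF class was also singled out after the shares of all classes were seen. Its interval therefore cannot show whether the letters are enriched in this class. With CTTTGAA the TCF/LEF class had 8 of 115 (6.96%, 3.05% to 13.2%), an interval that held the 4.6% of all shared distal peaks. It was then not the highest class. The beta-catenin class had 7 of 68 (10.3%, 4.24% to 20.1%) and secretion genes 1 of 7, while the other classes had 3.29% to 5.68%. All members had 42 of 777 (5.41%, 3.92% to 7.24%) with CTTTGAA. With CTTTGAT, ligands had 9 of 243 (3.7%), receptors 3 of 164 (1.83%) and the R-spondin and Lgr class 3 of 92 (3.26%). Inhibitors had 3 of 88 (3.41%), the beta-catenin class 4 of 68 (5.88%) and secretion genes 0 of 7 with the same letters. Axin2 had CTTTGAT in a promoter peak and in none of its 20 distal peaks, while Nkd1 had it in 2 of 4 promoter peaks and 3 of 18 distal peaks.

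Other genes of the pathway had higher promoter values than the 58 members. Their medians were 95.5 in replicate 1 and 140 in replicate 2. Of the 46, 32 were above the gene median in both replicates, against 48.0% of all genes. In the bin with the most CpG, 27 of them had medians of 102 and 143, close to the 103 and 141 of all genes there. Gsk3b, the kinase of the destruction complex, had 133 and 148, and the co-repressor Tle4 had 136 and 149. Sost, an inhibitor known from bone, had no promoter peak, and Dkkl1 had one in replicate 2 alone. Distal peaks of these genes had a median of 14, with 35 at the co-repressor Tle3 and 33 each at Btrc and Znrf3. Prickle2 had 32, and Ror2, a receptor for Wnt5a, had 30. Znrf3, a ligase that removes Frizzled receptors, is inhibited by R-spondins.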

How the data were processed

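DNase-seq peaks and hotspots of 2 replicates of midbrain at embryonic day 14.5 were analysed, 1 list per replicate. The peak files hold 150 bp intervals of mm10 whose signal value is, as deposited by the authors, a whole number with no stated scale. Hotspot files as deposited by the authors hold wider intervals with a −log10 q-value capped at 100, of which only positions and widths were used. The aligner and peak caller were not given in the sources used here, and the read depth behind the peaks is unknown, so no interval or floor was given for a value.

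Genes, transcript starts and UTRs came from GENCODE M21, sequence from the GRCm38 assembly (mm10), read with Python 3.11.15, numpy 2.4.6 and scipy 1.17.1. CpG was counted in 1000 bp either side of the gene's 5′ end. A promoter peak overlapped 1000 bp either side of any annotated start by at least 1 bp. A peak that overlaps this window with its centre beyond 1000 bp counts both at the promoter and as distal, which touched 17 members. Peak sharing and both counts were checked on simulated intervals.

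Members, classes and lists were chosen with earlier results of these data known. In classes of 7 or fewer genes every member was named, otherwise the 5 with the highest promoter rank, the 3 with the most distal peaks and those without a shared promoter peak; others are marked in the text. Distal regions were the 2 of highest rank per class and up to 5 within 10 kb of Wnt1 and Axin2. Alternatives changed the promoter window, starts, overlap, threshold, flanks, replicate lists and hotspots.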

Additional observations from a re-analysis of the deposited data

How the results depend on the processing

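The number of open promoters among the 58 members ranged from 53 to 58 over all alternatives, against 64.4% to 75.8% of all genes. A window of 500 bp lost Wnt8a, 1 of 2000 bp added Wnt10a, an overlap of 75 bp lost Fzd6 and Rspo1, and the stricter choice of peaks lost Wnt8a and Wnt8b. Counting a peak in each replicate without overlap, or hotspots, added Wnt10a and Sfrp5. The median percentile of ligand promoter values stayed between 40.2 and 43, and that of receptors between 68.3 and 71.5, under other windows and starts and in single replicates, alternatives chosen after seeing the data. Distal counts depended on the window and on the replicate. Members had a median of 4.5 in the gene body alone, 9 with 20 kb and 22 with 100 kb either side, against 1, 3 and 13 in all genes. Without replicate 1 and without replicate 2, in that order, the medians were 23 and 81 for ligands, 20.5 and 35 for receptors, 15 and 45 for R-spondins and Lgr, 16 and 47 for inhibitors, 37.5 and 108 for TCF/LEF, 19 and 48 for the beta-catenin class, 6.5 and 27 for secretion, and 19 and 48 for all members, against 11 and 22 in all genes. Replicate 1 has the longer peak list. No paired analysis was possible because there was 1 group. Unknown depth and 2 replicates limit all values.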
